A study of Mus musculus with 6 samples.

Results

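Coenzyme A (CoA) is the carrier to which cells attach fatty acids, acetate and other acyl groups before they are oxidized, built into lipids or passed to the citric acid cycle. It is made from pantothenate, a B vitamin, by pantothenate kinases, which set the pace of the pathway and are held back by its products, and then by phosphopantothenoylcysteine synthetase (Ppcs), phosphopantothenoylcysteine decarboxylase (Ppcdc) and CoA synthase (Coasy). Pantetheinases such as Vnn1 split pantetheine, a breakdown product of CoA, into pantothenate and cysteamine, so that the vitamin can be used again. Brown adipose tissue (BAT) burns fatty acids for heat, and each fatty acid enters oxidation as a CoA ester.

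The genes described here were 8 rows of the deposited count table, of 35976 rows in all, chosen by symbol: the pantothenate kinase family members Pank2, Pank3 and Pank4, the later synthesis genes Ppcs, Ppcdc, Coasy and Dcakd, and the pantetheinase gene Vnn1. Each of the 8 symbols was found once, and all 8 were among the 14542 genes that passed the expression filter. BAT was taken from 3 sST2-KO mice and 3 WT littermates, all male, on a C57BL/6J background and 10 weeks old. The sST2-KO mice carry a CRISPR/Cas9 deletion in every tissue of the Il1rl1 intron that holds the stop codon of soluble ST2 (sST2), a secreted form of the interleukin-33 receptor, while the membrane-bound receptor ST2L is still encoded. Surgical denervation of BAT, 7 days at 30 °C and a cold exposure of 8 h at 10 °C were shared by all 6 mice, so that no library came from innervated or unchallenged BAT. The comparison asks which BAT transcripts differed when sST2 was missing.

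The libraries held 8159442 to 12874809 counts, of which 6.80% to 16.6% lay on mitochondrially encoded genes. Levels are given as normalized CPM, that is, CPM after scaling of the libraries by the TMM method. A fold change is the log2 of sST2-KO over WT with its standard error (SE), and it was called at a Benjamini-Hochberg adjusted p under 0.05 by edgeR's quasi-likelihood test over all genes tested. Counts on Il1rl1 were 19, 19 and 6 in WT and 55, 69 and 142 in sST2-KO, but they sum the soluble and membrane-bound transcripts and do not check the genotype. The samples stood apart in the levels of cell type markers. The summed level of 9 brown adipocyte markers was 8241 to 15538 CPM in WT and 348 to 1830 CPM in sST2-KO, with Ucp1 at 5229, 6460 and 10522 CPM and 160, 1042 and 153 CPM, so the label of brown fat held in WT and its markers were low in sST2-KO. The 8 markers shared by all adipocytes summed to 20095 to 25892 CPM and 7782 to 14006 CPM. Skeletal muscle markers (12 genes) ran the other way, with 1355, 23.5 and 8.14 CPM in WT and 7137, 3837 and 16491 CPM in sST2-KO, and T cell markers (6 genes) summed to 11.2 to 13.2 CPM and 93.1 to 120 CPM. Their part in the results was not tested, and in bulk tissue fewer cells of a type and less RNA per cell cannot be told apart. Some brown adipocyte markers, Ucp1 among them, are thermogenic genes, whose expression the paper reports as reduced in sST2-KO BAT.

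The kinase genes carry microRNAs in their introns, which are shown because the host genes differed in their calls. On GRCm39, Mir103-2 lies in an intron of Pank2, Mir103-1 in an intron of Pank3 and Mir107 in an intron of Pank1, a kinase gene that is no member, each on the strand of its host. The mature sequences (RefSeq, GRCm38.p6, 5′ to 3′) have 23 bases, with the seed, bases 2 to 8, in capitals:
mmu-miR-103-3p: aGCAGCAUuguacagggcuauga
mmu-miR-107-3p: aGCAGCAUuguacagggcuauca
The seed GCAGCAU was shared, and the only difference was G22C, with the base of miR-103-3p first and positions counted from the 5′ end. The libraries were made from poly-A RNA and do not measure mature microRNAs. The hairpin Mir107 held 1, 2 and 1 counts in WT and 0 in each sST2-KO library, and both Mir103 hairpins were at 0 in all 6 libraries, which allows up to 3 counts in each.

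Among the 8 genes, Ppcs fell in sST2-KO BAT, Coasy was lower without reaching the adjusted threshold, and the other 6 overlapped between the groups. Thus 1 of 8 was called lower, against 9.10% of all genes tested, and 0 of 8 were called higher, against 10.5%. Ppcs was also the 1 member called with a change over 2-fold, a rule that 7.10% of all genes passed on the lower side. The levels did not overlap between groups for 2 members, both lower in sST2-KO, against 19.7% of all genes, and for 0 members in the other direction, against 21.8%. With 8 genes these shares are near the background and say nothing of the members as a group. The median log2 fold change was 0.047 over the 8 members and 0.034 over all genes tested, with 3 members below 0 and 5 above, and with scaling by total counts both medians were 0.29.

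**Figure D1:**
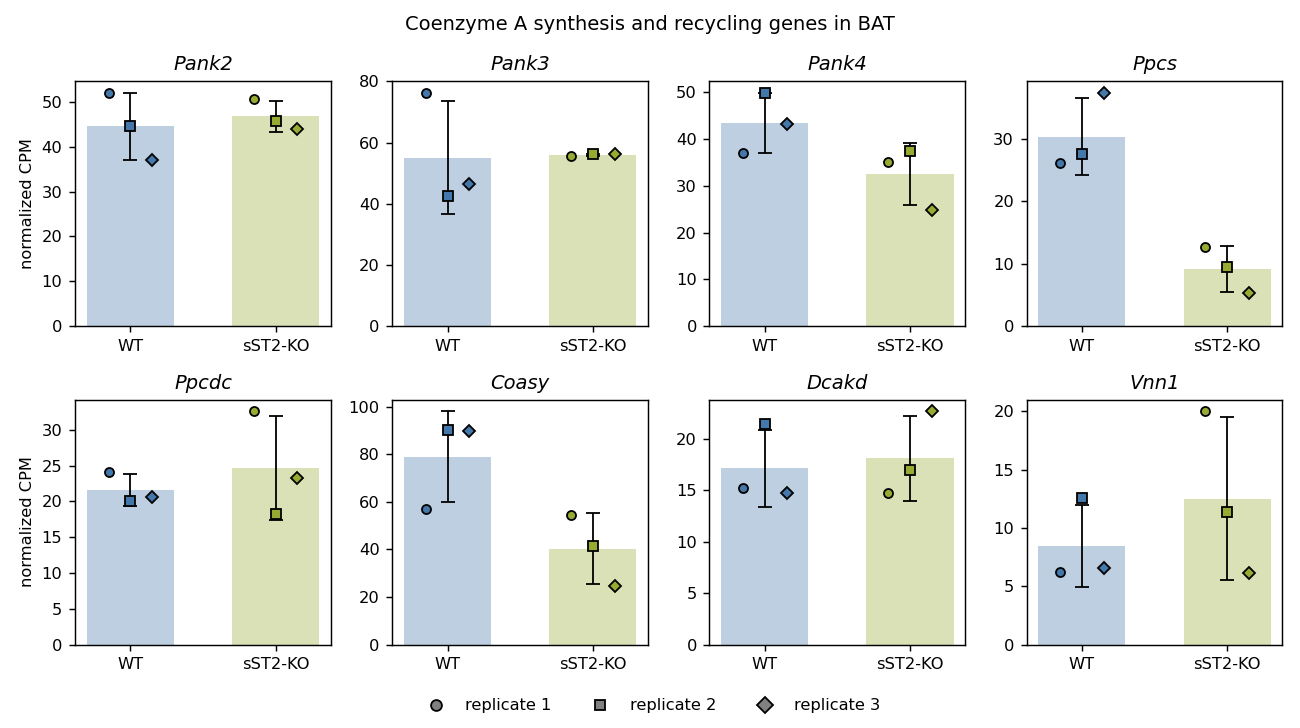
Normalized CPM (vertical axes, from 0, a separate scale for each gene) of the 8 genes in WT and sST2-KO BAT, with 1 symbol for each mouse, bars at the mean and lines of 1 SD (n = 3). Ppcs and Coasy do not overlap between the groups, and the other 6 genes do.

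The pantothenate kinases phosphorylate pantothenate in the first step of the pathway. Pank2 (chr2:131104415-131141108, plus strand, GRCm39) encodes the kinase that is mutated in a human neurodegeneration with iron in the brain. In the order of the replicate numbers, which is kept throughout, WT mice had levels of 52.1, 44.6 and 37.1 CPM and sST2-KO mice 50.7, 45.8 and 43.9 CPM. All sST2-KO mice lay within the WT range, and the log2 fold change was 0.07 (SE 0.18, 95% interval -0.36 to 0.50, adjusted p = 0.812 by edgeR's quasi-likelihood test). Pank2 shares 1125 of its 4912 exon bases with Rnf24 on the opposite strand, and reads there could not be told apart if the counting ignored strand, for which no setting is stated. A further 359 exon bases are shared with Gm14233 on the same strand, where reads are ambiguous with either setting.

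Pank3 (chr11:35660202-35682112, plus strand) encodes a cytosolic kinase. It had 76.3, 42.4 and 46.4 CPM in WT and 55.5, 56.2 and 56.2 CPM in sST2-KO. WT replicate 1 was the highest of the 6 libraries and the sST2-KO mice lay almost on top of each other between the WT values. The coefficient of variation was 33.7% in WT and 0.695% in sST2-KO. The sST2-KO value is below the counting error of its 797, 474 and 569 counts, so it does not measure the variation between mice. The log2 fold change was 0.02 (SE 0.24, 95% interval -0.54 to 0.59, adjusted p = 0.953 by edgeR's quasi-likelihood test).

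Pank4 (chr4:155048571-155065404, plus strand) encodes a family member known for a phosphatase activity toward phosphopantetheine, which opposes CoA synthesis. Its levels were 37.0, 49.9 and 43.3 CPM in WT and 35.2, 37.5 and 24.9 CPM in sST2-KO. The groups overlapped by a narrow margin, at WT replicate 1 and sST2-KO replicate 2, and sST2-KO replicate 3 was the lowest library. The log2 fold change of -0.42 (SE 0.22, 95% interval -0.92 to 0.09) did not pass the test (adjusted p = 0.207, edgeR's quasi-likelihood test).

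Pank1 (chr19:34784339-34856865, minus strand), the kinase gene that the symbols did not include, made up 64.4%, 66.3% and 82.9% of the summed Pank1 to Pank3 level per kilobase of exon in WT and 21.5%, 27.7% and 6.70% in sST2-KO. It fell from 314, 243 and 558 CPM in WT to 40.6, 53.9 and 9.87 CPM in sST2-KO, with no overlap (log2 fold change -3.42, SE 0.64, adjusted p = 0.0168 by edgeR's quasi-likelihood test). Leaving out WT replicate 3 ended this call (adjusted p = 0.0669). That fit called 0.146% of all genes lower, against 9.10% with all 6 libraries. The makeup of the kinase transcripts was compared after the values were seen. On the same scale, Pank2 and Pank3 together were 35.6%, 33.7% and 17.1% of that level in WT and 78.5%, 72.3% and 93.3% in sST2-KO. This is the remainder left by the Pank1 share, so it is the same result seen from the other side. The shares did not overlap, at 28.8% ± 10.2 (SD, n = 3) and 81.4% ± 10.8 (SD, n = 3), with p = 0.1 in a two-sided exact permutation test, the smallest that 3 against 3 can give. Their summed level itself was 16.4 ± 3.81 CPM per kb in WT and 17.0 ± 0.658 CPM per kb in sST2-KO (SD, n = 3, exact permutation p = 0.9), while the sum with Pank1 was 58.3, 43.8 and 80.4 CPM per kb against 22.6, 23.3 and 17.6 CPM per kb. WT replicate 3, with the highest Pank1 and the highest Ucp1, had the lowest share of Pank2 and Pank3, and sST2-KO replicate 3, with the lowest of both, the highest. The part of the brown adipocyte markers in this order was not tested.

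**Figure D2:**
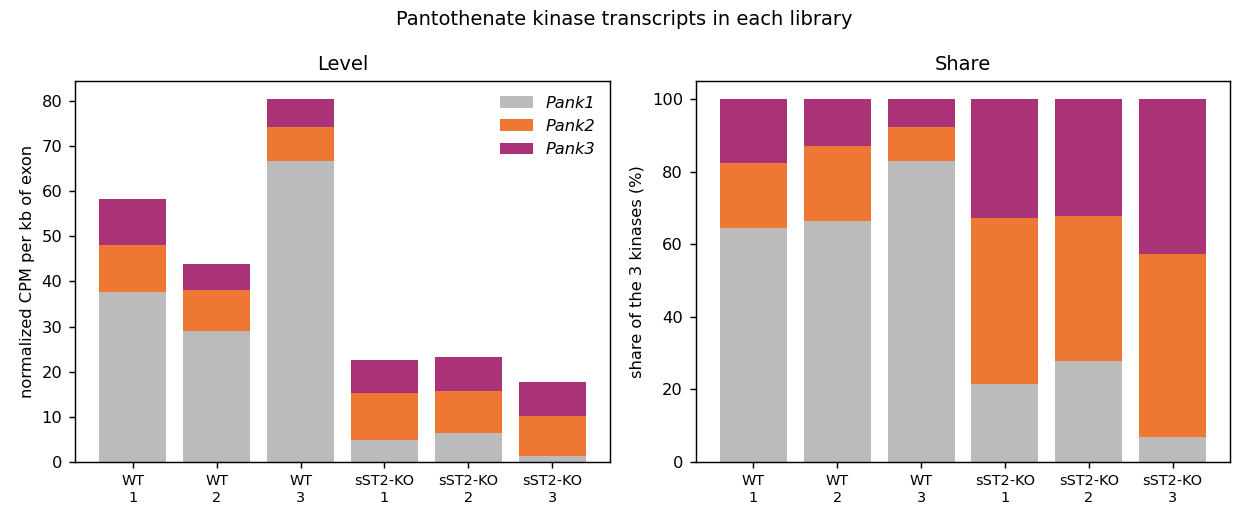
Stacked bars of the pantothenate kinase transcripts in each library, as normalized CPM per kb of exon (left) and as a percent of the 3 kinases (right). The summed Pank2 and Pank3 segments overlap between the groups in height, the Pank1 segment is small in each sST2-KO library, and Pank2 and Pank3 make up 17.1% to 35.6% of the total in WT and 72.3% to 93.3% in sST2-KO.

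Ppcs (chr4:119275724-119279628, minus strand) encodes the synthetase that joins phosphopantothenate to cysteine, which supplies the sulphur of CoA. It had 26.0, 27.5 and 37.4 CPM in WT (279, 292 and 303 counts) and 12.6, 9.49 and 5.23 CPM in sST2-KO (181, 80 and 53 counts). Every sST2-KO mouse was below every WT mouse, WT replicate 3 was the highest and sST2-KO replicate 3 the lowest. The mean was 30.3 ± 6.16 CPM in WT and 9.11 ± 3.71 CPM in sST2-KO (SD, n = 3), with a fitted ratio of 0.302. The log2 fold change was -1.73 (SE 0.34, 95% interval -2.52 to -0.93, adjusted p = 0.0185 by edgeR's quasi-likelihood test). The call was lost without WT replicate 2 (-1.79, adjusted p = 0.0502) and without WT replicate 3 (-1.55, adjusted p = 0.0786), while the direction held with each library left out. The fits without WT replicate 2 and without WT replicate 3 called 3.25% and 0.146% of all genes lower, against 9.10% with all 6 libraries. The 2 exon blocks of Ppcs share no base with another annotated gene.

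Ppcdc (chr9:57292062-57347430, minus strand) encodes the decarboxylase that takes up the product of Ppcs and yields phosphopantetheine. Its levels were 24.2, 20.1 and 20.6 CPM in WT and 32.6, 18.3 and 23.3 CPM in sST2-KO. The sST2-KO mice lay on both sides of the WT mice, with the highest and the lowest library both among them, and the log2 fold change was 0.20 (SE 0.25, 95% interval -0.38 to 0.77, adjusted p = 0.604 by edgeR's quasi-likelihood test). Within a library, which cancels its scaling, the ratio of Ppcs to Ppcdc counts was 1.08, 1.37 and 1.81 in WT and 0.387, 0.519 and 0.225 in sST2-KO. These ratios, chosen after the values were seen, did not overlap (two-sided exact permutation p = 0.1, the smallest possible), and lay above 1 in every WT library and below 1 in every sST2-KO library, without correction for length.

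The promoters of this neighbouring pair are shown because only Ppcs was called although the enzymes act in sequence. RefSeq windows on GRCm38.p6, from 250 bases before to 50 after the gene start, were at hand for 6 of the 8 members and not for Coasy and Vnn1. They were searched on both strands for the cAMP response element TGACGTCA, the oestrogen-related receptor site TCAAGGTCA and the nuclear receptor core AGGTCA, which is contained in the second. Capitals mark AGGTCA in the windows chr4:119422371-119422670 and chr9:57439687-57439986, both minus strand and written 5′ to 3′:
Ppcs: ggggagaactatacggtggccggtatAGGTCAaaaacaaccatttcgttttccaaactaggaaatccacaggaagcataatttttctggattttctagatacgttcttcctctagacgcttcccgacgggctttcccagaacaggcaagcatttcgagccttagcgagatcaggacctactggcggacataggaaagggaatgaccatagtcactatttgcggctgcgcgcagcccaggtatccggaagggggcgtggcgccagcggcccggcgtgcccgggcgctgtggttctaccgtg
Ppcdc: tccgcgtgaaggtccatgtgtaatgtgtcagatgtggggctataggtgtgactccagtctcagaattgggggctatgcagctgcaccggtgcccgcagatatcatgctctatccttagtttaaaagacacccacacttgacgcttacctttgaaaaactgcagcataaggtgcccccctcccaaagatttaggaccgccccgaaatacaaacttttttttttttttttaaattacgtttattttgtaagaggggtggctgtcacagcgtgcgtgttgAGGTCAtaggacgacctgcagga
The core lay 224 bases before the start of Ppcs and 27 bases after that of Ppcdc, and none of the 3 motifs was in the windows of the other 4 members. AGGTCA was present in 16.3% of all 32851 windows, TGACGTCA in 1.79% and TCAAGGTCA in 0.423%, so a match is a description of these letters and no sign of binding.

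Coasy (chr11:100973391-100977446, plus strand) encodes the bifunctional enzyme that adds the adenylyl group to phosphopantetheine and then phosphorylates dephospho-CoA to CoA. It had 57.0, 90.2 and 89.9 CPM in WT and 54.5, 41.4 and 24.7 CPM in sST2-KO. The groups did not overlap, but WT replicate 1 and sST2-KO replicate 1 stood next to each other. The means were 79.0 ± 19.1 CPM and 40.2 ± 14.9 CPM (SD, n = 3), and the log2 fold change was -0.97 (SE 0.32, 95% interval -1.72 to -0.23). Its adjusted p of 0.0702 by edgeR's quasi-likelihood test missed the threshold, at an unadjusted p of 0.0173. DESeq2 called it (adjusted p = 0.0235), and so did edgeR without sST2-KO replicate 1 (-1.26, adjusted p = 0.0479).

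Dcakd (chr11:102884868-102919190, minus strand) is named for a dephospho-CoA kinase domain, like the last activity of Coasy. Its levels were 15.2, 21.5 and 14.8 CPM in WT and 14.7, 17.0 and 22.7 CPM in sST2-KO. The groups lay over each other, with a log2 fold change of 0.08 (SE 0.26, 95% interval -0.52 to 0.67, adjusted p = 0.855 by edgeR's quasi-likelihood test). sST2-KO replicate 3 had the most Dcakd and the least Coasy of the 6 libraries. The ratio of Coasy to Dcakd counts was 3.75, 4.20 and 6.08 in WT and 3.71, 2.44 and 1.09 in sST2-KO, again chosen after the values were seen. These did not overlap (two-sided exact permutation p = 0.1, the smallest possible), though WT replicate 1 and sST2-KO replicate 1 nearly met. Of the 3562 exon bases of Dcakd, 175 are shared with Nmt1 on the opposite strand.

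Vnn1 (chr10:23770586-23781241, plus strand), a membrane-anchored pantetheinase known as a target of the fatty acid receptor PPAR alpha in liver, was the most variable member. It had 6.25, 12.5 and 6.53 CPM in WT (67, 133 and 53 counts) and 20.0, 11.4 and 6.12 CPM in sST2-KO (287, 96 and 62 counts). sST2-KO replicate 1 was the highest library and sST2-KO replicate 3 the lowest, with coefficients of variation of 42.0% in WT and 56.0% in sST2-KO. The log2 fold change of 0.57 (SE 0.47, 95% interval -0.54 to 1.68) did not pass the test (adjusted p = 0.426, edgeR's quasi-likelihood test), and a change of either sign lies within that interval. It was 0.97 without WT replicate 2 (adjusted p = 0.254) and 0.05 without sST2-KO replicate 1 (adjusted p = 0.950). Among WT mice the highest Vnn1 was in replicate 2, whose 12 hepatocyte markers summed to 6227 CPM, with Alb at 3192 CPM, against 449 and 275 CPM in WT replicates 1 and 3 and 69.9 to 90.0 CPM in sST2-KO. The part of that signal in Vnn1 was not tested. The related pantetheinase gene Vnn3 showed the same high library within WT, at 2.71, 9.05 and 2.10 CPM, with 7.39, 4.75 and 6.52 CPM in sST2-KO (log2 fold change 0.42, adjusted p = 0.620 by edgeR's quasi-likelihood test). For Vnn3 this value was 1.37 when WT replicate 2 was left out (adjusted p = 0.0743) and 0.08 when WT replicate 3 was (adjusted p = 0.945).

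**Figure D3:**
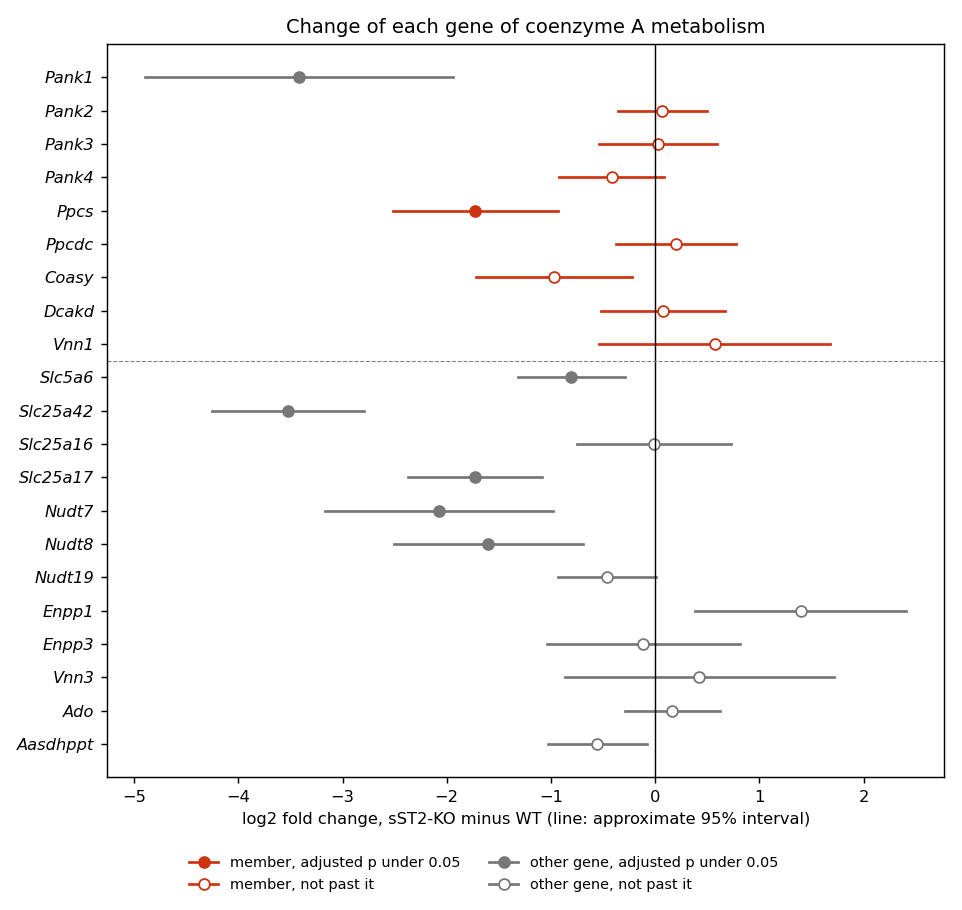
The log2 fold change of sST2-KO over WT (horizontal axis) with its approximate 95% interval for the 8 members, in red, and Pank1 and the genes of CoA transport and breakdown and phosphopantetheine transfer, in grey. Filled points passed an adjusted p of 0.05, and Ppcs at -1.73 is the filled member.

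To compare levels between genes, CPM was divided by the length of all annotated exons. In WT the order was Coasy (23.6 CPM per kb), Ppcs (16.5), Pank2 (9.08), Pank3 (7.35), Pank4 (5.39), Dcakd (4.82), Vnn1 (2.44) and Ppcdc (1.93 CPM per kb). Between neighbours in this order only Ppcs and Pank2, and Dcakd and Vnn1, had libraries that did not overlap. In sST2-KO the order was Coasy (12.0 CPM per kb), Pank2 (9.53), Pank3 (7.48), Dcakd (5.09), Ppcs (4.98), Pank4 (4.04), Vnn1 (3.62) and Ppcdc (2.21 CPM per kb). There only Pank2 and Pank3, and Pank3 and Dcakd, were apart. Ppcs thus stood in place 2 in WT and in place 5 in sST2-KO, while Coasy was first and Ppcdc last in both. The order depends on the annotated exons, 11215 bases for Ppcdc and 1831 for Ppcs, and their use in BAT was not tested. Before division by length, Ppcdc was above Dcakd and Vnn1, with means of 21.6, 17.2 and 8.44 CPM in WT. In sST2-KO these means were 24.7, 18.1 and 12.5 CPM.

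The order of the sST2-KO mice differed from member to member. Replicate 1 had the highest level of Pank2, Ppcs, Ppcdc, Coasy and Vnn1 among them, and the lowest of Pank3 and Dcakd. Replicate 2 had the highest of Pank3, by a hair, and of Pank4, and the lowest of Ppcdc. Replicate 3 had the lowest of Pank2, Pank4, Ppcs, Coasy and Vnn1 and the highest of Dcakd. How often such orders occur over all genes was not counted, so they do not show that the members vary together. Replicate 3 also had the highest summed macrophage markers (10 genes, 6391 CPM against 1476 to 1625 CPM in the other sST2-KO mice and 823 to 1116 CPM in WT), the highest skeletal muscle markers and the lowest share of mitochondrially encoded counts, whose part in the order was not tested. Neutrophil markers (8 genes) summed to 32.9 to 140 CPM in WT and 156 to 765 CPM in sST2-KO. Endothelial markers (6 genes) overlapped, at 1036 to 1247 CPM and 976 to 1609 CPM, as did fibroblast markers (6 genes), at 1920 to 6049 CPM and 1127 to 10006 CPM. Of single markers, 7 of 9 for brown adipocytes, 1 of 8 for all adipocytes, 3 of 12 for hepatocytes and 1 of 6 for endothelial cells were called lower, against 9.10% of all genes. Called higher were 6 of 6 for T cells, 4 of 8 for neutrophils, 2 of 10 for macrophages, 1 of 12 for skeletal muscle and 1 of 6 for endothelial cells, against 10.5% of all genes, and 0 of 6 fibroblast markers were called.

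The genes around the pathway were read from lists that were drawn up with earlier results of these data known, so their counts are no independent evidence of a direction. Of 4 transporters, 3 fell in sST2-KO, against 9.10% of all genes, and 1 was called without WT replicate 3, against 0.146%. Slc25a42, the mitochondrial CoA carrier, went from 196, 155 and 204 CPM in WT to 16.9, 21.4 and 10.1 CPM (log2 fold change -3.53, SE 0.31, adjusted p = 0.00831 by edgeR's quasi-likelihood test), and leaving out any 1 library kept the call. Slc25a17, the peroxisomal carrier of CoA, fell by 1.73 on the log2 scale (adjusted p = 0.0143), and Slc5a6, the sodium-dependent vitamin transporter that takes up pantothenate, fell by 0.80 (adjusted p = 0.0414), both by edgeR's quasi-likelihood test. The call of Slc5a6 was lost when any of 5 of the 6 libraries was left out, and that of Slc25a17 without WT replicate 3 (adjusted p = 0.0610). Slc25a16, a mitochondrial carrier long linked to CoA, stood at -0.01 on that scale (adjusted p = 0.982), or at 0.24 when libraries were scaled by total counts. Aasdhppt, which moves the phosphopantetheine arm of CoA onto carrier proteins, was lower in every sST2-KO mouse, at -0.56 (adjusted p = 0.0928 by edgeR's quasi-likelihood test).

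Of the 7 genes of CoA breakdown, 2 fell, against 9.10% of all genes, and 0 rose, against 10.5%. Nudt7, a peroxisomal CoA diphosphatase, had a log2 fold change of -2.07 (SE 0.47, adjusted p = 0.0254), and Nudt8, its mitochondrial relative, of -1.60 (SE 0.39, adjusted p = 0.0303), by edgeR's quasi-likelihood test. The call of Nudt7 was lost without WT replicate 1 (adjusted p = 0.0537) or WT replicate 3 (adjusted p = 0.0956), and that of Nudt8 without WT replicate 2 or 3 or sST2-KO replicate 2 or 3 (adjusted p = 0.0681 to 0.112). Nudt8 shares 751 exon bases with the gene model Gm49405 on its own strand, so its counts are uncertain. The peroxisomal Nudt19 had a log2 fold change of -0.46 (adjusted p = 0.143), the nucleotide pyrophosphatases Enpp1 and Enpp3 had 1.40 (adjusted p = 0.0605) and -0.11 (0.12 with total counts), and Ado, the dioxygenase that oxidizes cysteamine, had 0.16 (adjusted p = 0.585). Enpp1 was higher in every sST2-KO mouse and was called by DESeq2 (adjusted p = 0.0233), with total counts (0.0435), with at least 10 counts in every sample (0.0494) and without sST2-KO replicate 1 (0.0307).

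The 10 other lists, PPAR alpha targets that do not handle CoA among them, held 84 genes, of which 81 were tested. Of these, 47 were called lower (against 9.10% of all genes) and 1 higher (against 10.5%). Their median log2 fold change was -1.62, beside a median of 0.047 over the 8 members. No test of this difference between lists was made. Without WT replicate 3 the 47 lower calls went to 3, and without WT replicate 2 to 27. Of all genes, 0.146% were called lower without WT replicate 3 and 3.25% without WT replicate 2. The median of the other lists was -1.475 and -1.616 in these fits. Mitochondrial beta-oxidation had 11 of 12 genes called lower (median -2.05), led by Acaa2 (-2.49), Acadvl (-2.43) and Acads (-2.41), but 2 without WT replicate 2 and 0 without WT replicate 3. The dehydrogenases and ligases that form or split CoA esters in and around the citric acid cycle had 10 of 11 lower (median -1.91), led by Suclg1 (-2.52), Ogdh (-2.40) and Sucla2 (-2.31), and 0 without WT replicate 3. Of 6 carnitine acyltransferases, 3 fell, namely Cpt1b (-2.16), Cpt2 (-2.07) and Crat (-1.92). Of 4 carriers of a phosphopantetheine arm, 3 fell, namely Fasn (-3.30), Ndufab1 (-1.95) and Aldh1l1 (-0.84). The calls of both lists went to 0 without WT replicate 3. Cpt1b shares 2744 of its 4008 exon bases with the gene model Gm44502 on its own strand, so its counts are uncertain. Acadvl shares 1504 of its 3937 exon bases with Dvl2 on the opposite strand, where reads are uncertain if the counting ignored strand.

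Acyl-CoA synthetases, which attach fatty acids to CoA, had 3 of 12 called lower (median -1.17), against 9.10% of all genes. Called higher was 1 of 12, against 10.5%. Without WT replicate 3, 0 were called in either direction. Acsl1 (-2.22) and Acsf3 (-1.86) were lower, and Acsl6 rose from 9, 1 and 0 counts in WT to 81, 11 and 104 counts in sST2-KO, in the order of the summed skeletal muscle markers over the 6 libraries. The part of muscle in Acsl6 was not tested, and its call was lost when any of 4 libraries was left out. Acyl-CoA thioesterases, which release CoA from its esters, had 8 of 11 tested genes called lower (median -1.70), against 9.10% of all genes. Among them were Acot11 (-3.04) and Acot1 (-2.24), while Acot5 had 51, 170 and 48 counts in WT and 3 in each sST2-KO library. The thioesterase calls went to 1 without WT replicate 3 and to 4 or 5 without WT replicate 2 or sST2-KO replicate 2 or 3. Whether reads were split between related Acot genes was not tested. Of 12 PPAR alpha targets, 3 were called lower (median -1.07), against 9.10% of all genes, namely Ehhadh (-3.89), Acaa1b (-3.11) and Cyp4a14. Cyp4a14 had 30, 1215 and 20 counts in WT and 11, 2 and 1 in sST2-KO, with its high library the one with hepatocyte markers. Without WT replicate 3 these calls went to 1.

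**Figure D4:**
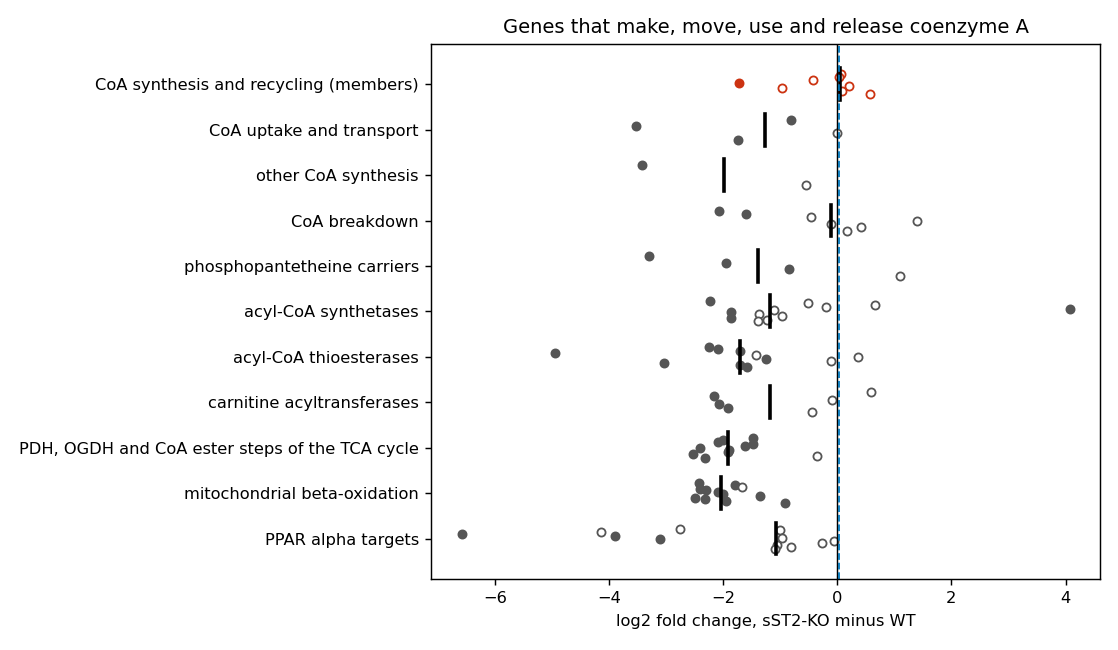
Log2 fold change of sST2-KO over WT (horizontal axis) of each tested gene, by list, with the 8 members in red at the top, filled points for an adjusted p under 0.05, a black bar at the median of each list and a dashed line at the median of all genes tested, 0.034. The median is 0.047 for the members and -2.05 for beta-oxidation.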

How the data were processed

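RNA-seq was made from BAT of 3 WT and 3 sST2-KO mice. The authors aligned reads to mm39 with HISAT2 2.2.1 after FastQC 0.12.1 (versions per the submitters' processing notes), counted them with htseq-count and deposited raw counts per gene symbol, without normalization. The annotation and strand setting are not given in the sources used here. The samples were grouped by their labels, and 0 value columns were left unused. Of 35976 rows, 24599 had a count, and 27 symbols turned into dates were kept unnamed.

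In R 4.3.3, edgeR 4.0.16 was run with filterByExpr (14542 genes kept), TMM factors and the quasi-likelihood test without covariates, with Benjamini-Hochberg adjustment. The authors' methods name DESeq2, tried here as DESeq2 1.42.0. The SE was the size of the log2 fold change over the square root of F. The common biological coefficient of variation was 0.325. No 2 libraries of a group were copies (chi-square per degree of freedom 36.6 to 104). The labels name no batch. The limit given for a count of 0 covers counting error only. The steps were tested on simulated data.

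Exon lengths and coordinates are from GENCODE vM39 on GRCm39. Members and lists were chosen with earlier results of these data known. Named were all members, every tested gene of the transport, transfer and breakdown lists, of each other list the 3 largest changes with an adjusted p under 0.05, and of marker lists the sums and single leading genes. Alternatives were DESeq2, robust estimation, RLE factors or total counts as scaling, a minimum of 10 counts in each library or no filter, the replicate block and leaving out each library. Raw counts in place of lengths, and leave-one-out of the ratios, were added after seeing the data.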

Additional observations from a re-analysis of the deposited data

How the results depend on the processing

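Ppcs was lower in all alternatives, from -2.04 to -1.46 on the log2 scale with 1 library left out, and the number of members called lower was 2 with DESeq2, 0 with the replicate block and 0 to 2 with 1 library left out (0 without WT replicate 2 or WT replicate 3, 2 without sST2-KO replicate 1). Of all genes tested, 13.0% were called lower with DESeq2 and 0% with the block, against 9.10% in the main fit. The share was 3.25% without WT replicate 2, 0.146% without WT replicate 3 and 6.91% without sST2-KO replicate 1. The number of members called past 2-fold was 0 with the block and 0 to 2 with 1 library left out. Of the other lists, 47 genes were called lower, with 0 under the block and 3 to 41 with 1 library left out, and 1 higher, with 2 under total counts, 2 under DESeq2, 0 under the block and 0 to 1 with 1 library left out. Over all genes, WT replicate 3 left out gave 22 lower and 36 higher calls (3797 at an unadjusted p under 0.05). The cause was not tested.

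Total counts moved the median of all genes to 0.29 from 0.034, and that of the members to 0.29, so the members' shift is that of all genes. It turned Slc25a16 to 0.24 and Enpp3 to 0.12, and at least 10 counts turned Slc25a16 to 0.014. With 1 library left out the sign also turned in Pank2 (-0.050 to 0.19), Pank3 (-0.13 to 0.33), Ppcdc (-0.057 to 0.35), Dcakd (-0.12 to 0.27), Slc25a16 (-0.42 to 0.20) and Enpp3 (-0.41 to 0.22), none of which was called.

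The labels do not say whether the replicate numbers pair the mice. Deviations from the group means correlated at -0.06, 0.21 and -0.31 between libraries of the same number. So few libraries cannot decide whether they were paired. With the number as a block edgeR called 0 genes lower and 0 higher (4623 at an unadjusted p under 0.05), and Ppcs had -1.78 (adjusted p = 0.0725). The lowest count of a member was 53, in Ppcs and in Vnn1.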
